A study of Rattus norvegicus with 16 samples.

Results

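The miR-17~92 cluster and its paralogs were represented by 10 of the 677 rat miRNAs on the array and were followed in the hearts of newborn rats. The members were rno-miR-17-5p, rno-miR-18a, rno-miR-19a, rno-miR-19b, rno-miR-20a and rno-miR-92a of the miR-17~92 cluster, and their relatives rno-miR-20b, rno-miR-93, rno-miR-106b and rno-miR-25, written without the species prefix from here on. They were taken by name from the array's annotation column. For 9 of them the name was identical, and the remaining member, miR-20b, was matched through its arm name, miR-20b-5p. Hearts came from 2-day-old pups of the HHR strain (Hypertrophic Heart Rat), labelled as hypertrophic, and of the NHR strain (Normal Heart Rat), its control of normal heart size. No heart weights were used here. Each strain gave 4 females and 4 males, with 1 array per animal and no pooled RNA, so 16 arrays in 4 groups were compared. The labels name no transgene and no treatment other than the pentobarbitone overdose used for killing. The labels name the whole heart in one field and ventricles freed of atria in another. In RNA from whole tissue, fewer cells of a type and less RNA per cell cannot be told apart.

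The miR-17~92 cluster is a single primary transcript that is cut into several hairpins that each yield a mature miRNA. Its transcription is driven by growth-promoting factors such as Myc and E2F proteins, and its best known targets include the cell cycle inhibitor Cdkn1a and the death-promoting protein Bcl2l11. Mammals carry a copy of the cluster on the X chromosome and another, shorter copy inside Mcm7, which encodes a subunit of the replicative helicase. In the mouse heart the cluster promotes the proliferation of cardiomyocytes, which stops soon after birth. A miRNA recognises its targets mainly through the seed, bases 2 to 8 from its 5′ end, so miRNAs of a shared seed have overlapping targets whichever locus they come from.

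The 10 mature sequences are printed because they show which members share a seed and how little separates them elsewhere. They are RefSeq sequences from the rat GRCr8 assembly, 5′ to 3′, and the capitals mark the seed. The 5 members with the miR-17 seed come first, then miR-18a, the miR-19 pair and the miR-92 pair.
miR-17-5p: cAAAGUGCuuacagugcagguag
miR-20a: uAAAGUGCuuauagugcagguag
miR-20b-5p: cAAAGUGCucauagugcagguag
miR-93: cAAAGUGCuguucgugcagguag
miR-106b: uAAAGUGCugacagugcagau
miR-18a: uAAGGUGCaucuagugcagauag
miR-19a: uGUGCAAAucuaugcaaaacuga
miR-19b: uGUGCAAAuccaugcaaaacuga
miR-92a: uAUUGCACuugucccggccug
miR-25: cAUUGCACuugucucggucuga
The 10 members thus carried 4 distinct seeds. The seed of miR-18a differed from that of miR-17-5p at 1 base. miR-17-5p, miR-20a and miR-20b-5p differed from each other at 2 positions in each pairing, miR-19a from miR-19b at 1, and miR-92a from miR-25 at 3 of the 21 positions they share. How far a probe for one of these also binds the next was not tested, since the probe sequences were not used here.

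Genomic origin and seed cross each other. In GRCr8 the 6 hairpins of miR-17~92 lie at chr15:98587848-98588632, a stretch of 785 bp on the plus strand. The X-linked copy holds 5 listed hairpins at chrX:137342777-137343647 on the minus strand. The 3 hairpins for miR-106b, miR-93 and miR-25 lie at chr12:22156641-22157134, within the boundaries of Mcm7 (chr12:22155921-22163320). Of the 10 members, miR-18a, miR-19a and miR-20a come from chromosome 15 alone, miR-20b-5p from X alone, and 3 members (miR-17-5p, miR-19b and miR-92a) from 2 hairpins each, 1 on chromosome 15 and 1 on X. For miR-17-5p the hairpins are shown because their capitals, the mature strand, are the same while the rest of the hairpin differs.
Mir17, chr15:98587848-98587931, plus strand: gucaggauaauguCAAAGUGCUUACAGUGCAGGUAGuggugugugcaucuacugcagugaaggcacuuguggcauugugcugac
Mir106a, chrX:137343570-137343647, minus strand: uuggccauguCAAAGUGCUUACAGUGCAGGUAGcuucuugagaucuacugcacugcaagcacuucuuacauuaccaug
A level of miR-17-5p, miR-19b or miR-92a on these arrays can therefore hold molecules from both loci.

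Across the arrays, 186 miRNAs were detected on all 16, and 233 were detected on at least 4 and tested. HHR arrays were brighter before scaling: their 75th percentile of signal ran from 417.7 to 525.2, while 3 NHR arrays lay between 442.7 and 502.9 and 5 between 294.7 and 326.8 (difference in means 91.2, two-sided exact permutation test, p = 0.0191). Levels below are processed intensities after scaling to a common 75th percentile. Each miRNA is read by its own probes, so a level was compared between arrays and not between miRNAs. All 10 members were detected on all 16 arrays through 2 probes each, all 20 probes were well above background on every array, and no spot was saturated.

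At the reported scaling the neonatal hearts of both strains held similar levels of all 10 miRNAs. No member passed the test for a strain difference (0 of 10, limma with Benjamini-Hochberg adjustment over the 233 tested miRNAs), whereas 54.5% of all tested miRNAs passed, 9.01% as higher and 45.5% as lower in HHR. An unadjusted p under 0.05 was reached by 2 of the 10, miR-18a and miR-25. The strain difference of the members ran from -0.062 for miR-25 to 0.075 for miR-18a on the log2 scale, with a median of 0.023, and the median over all tested miRNAs was -0.11. The arrays of the strains overlapped for each member, while they did not overlap for 14.2% of the tested miRNAs.

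**Figure D1:**
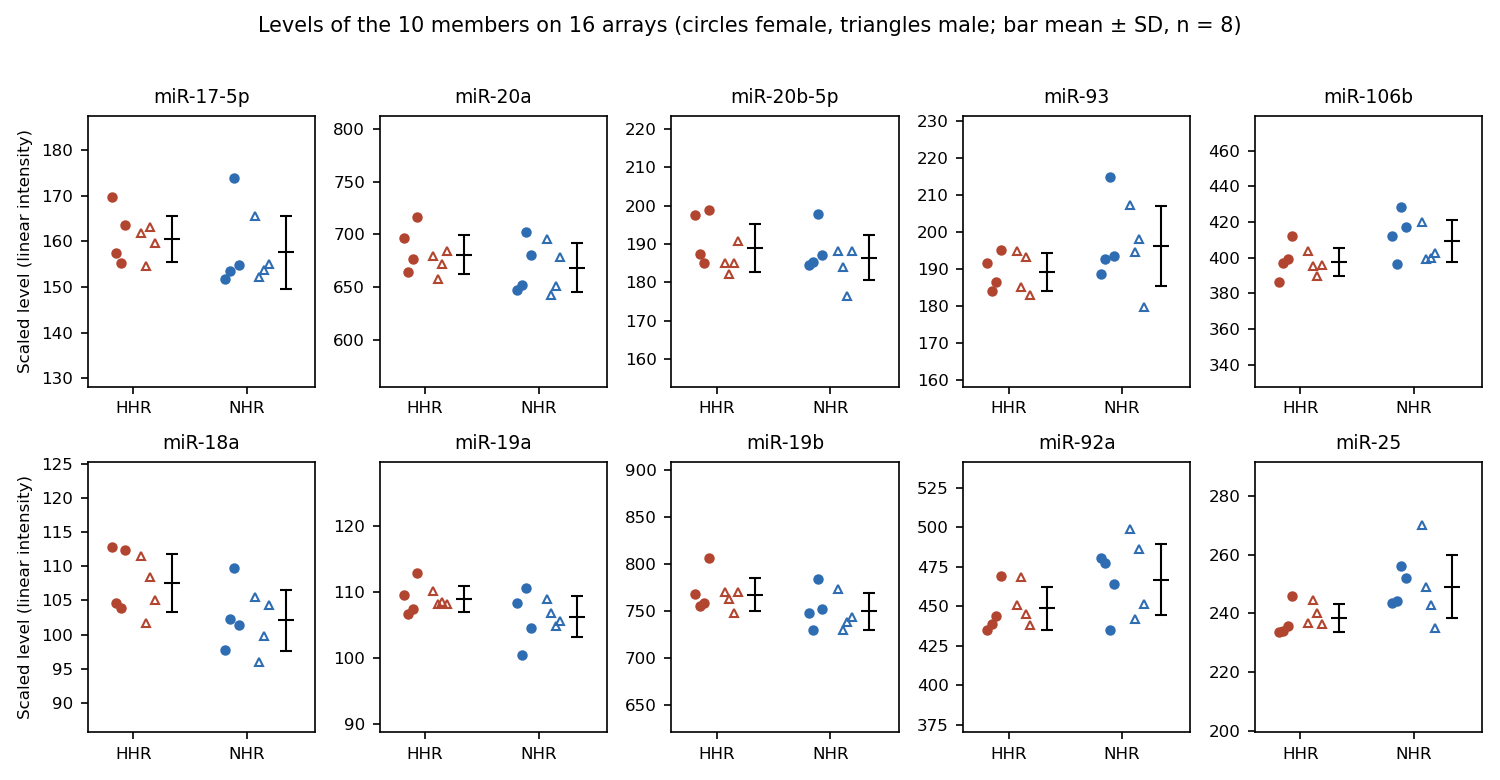
Scaled level (linear intensity, own axis per miRNA that does not start at 0) of the 10 members on each of the 16 arrays, by strain, with filled circles for females, open triangles for males and the mean ± SD over 8 arrays beside them. The HHR and NHR points overlap in every panel; for miR-17-5p the HHR arrays lie between 154.5 and 169.8 and the NHR arrays between 151.8 and 174.0.

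Among the 5 members with the miR-17 seed, those from chromosomes 15 and X lay slightly above 0 and the pair from Mcm7 slightly below, at the reported scaling. miR-17-5p, which represses Cdkn1a and gives the cluster its name, had a lowest, median and highest level of 154.5, 160.7 and 169.8 on the 8 HHR arrays and of 151.8, 154.3 and 174.0 on the 8 NHR arrays. All 8 HHR arrays lay above the NHR median, yet the highest level was an NHR one, and the difference was 0.029 ± 0.033 (log2, SE; limma adjusted p = 0.472). miR-20a, encoded in the same transcript, measured 657.9, 678.1 and 716.2 in HHR and 642.5, 665.1 and 702.3 in NHR. Its ranges shared most of their span, and the difference was 0.027 ± 0.026 (limma adjusted p = 0.397).

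For miR-20b-5p, the member made from the X chromosome alone, the levels were 182.1, 186.2 and 198.96 in HHR and 176.5, 186.3 and 197.8 in NHR. Its medians were almost equal, 4 HHR arrays lay on each side of the NHR median, and the difference was 0.020 ± 0.025 (limma adjusted p = 0.520). miR-93 from Mcm7 measured 182.9, 189.0 and 195.2 in HHR and 179.9, 194.0 and 214.9 in NHR. The NHR arrays spanned the HHR ones on both sides, with a difference of -0.051 ± 0.035 (limma adjusted p = 0.219). miR-106b, its neighbour in Mcm7, measured 386.6, 396.4 and 412.0 in HHR and 396.5, 407.3 and 428.2 in NHR. Here 4 of the 8 HHR arrays lay below every NHR array and 7 of 8 below the NHR median, and the difference of -0.042 ± 0.022 missed the threshold (limma adjusted p = 0.123).

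miR-18a, which in heart muscle has been tied to the repression of matrix genes such as Ctgf, had the largest positive difference of the members. Its levels were 101.7, 106.8 and 112.8 in HHR and 95.95, 101.9 and 109.8 in NHR. The lowest NHR arrays lay below all HHR arrays, 3 HHR arrays lay above all NHR arrays, and the strains overlapped in between. The difference was 0.075 ± 0.033, a ratio of 1.05 (95% interval 1.00 to 1.11), and it missed the threshold (limma adjusted p = 0.0712). It passed without HHR male 2 (0.087, adjusted p = 0.0493) or without NHR female 3 (0.091, adjusted p = 0.0281). The miR-19 pair, whose seed is unrelated to that of miR-17, had smaller differences. miR-19a measured 106.7, 108.3 and 112.9 in HHR and 100.5, 106.2 and 110.5 in NHR, a difference of 0.036 ± 0.023 (limma adjusted p = 0.190). miR-19b measured 748.1, 765.5 and 806.5 in HHR and 729.8, 745.8 and 784.4 in NHR, a difference of 0.033 ± 0.023 (limma adjusted p = 0.217). For each of the pair, all 8 HHR arrays lay above the NHR median and 1 lay above every NHR array.

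Both members with the miR-92 seed lay below 0 at the reported scaling, although one comes from chromosomes 15 and X and the other from Mcm7. miR-92a, which restrains vessel growth when it acts in endothelial cells, measured 434.9, 444.2 and 469.2 in HHR and 434.9, 470.8 and 498.9 in NHR. All 8 HHR arrays lay below the NHR median but none below the lowest NHR array, and the difference was -0.057 ± 0.033 (limma adjusted p = 0.154). The 3 NHR arrays that were bright before scaling read miR-92a at 434.9 to 451.6, and the 5 dim ones at 464.0 to 498.9. With the bright arrays alone, a choice made after seeing the data, the miR-92a difference turned positive. miR-25, a known repressor of the calcium pump gene Atp2a2 in heart muscle, measured 233.7, 236.6 and 246.1 in HHR and 235.0, 246.6 and 270.2 in NHR. All 8 HHR arrays again lay below the NHR median and 2 lay below every NHR array. Its difference, -0.062 ± 0.028 or 1.04-fold, was the most negative of the 10 and missed the threshold (limma adjusted p = 0.0755). It passed without NHR male 4 (-0.076, adjusted p = 0.0290). A p that misses the threshold does not show equality, but at the reported scaling the 95% intervals of all 10 members lay between -0.13 and 0.15 (log2). These intervals leave out the choice of scaling, and without scaling the differences themselves ran from 0.28 to 0.41.

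The sign of these small differences depended on how arrays were brought to a common scale. At the reported scaling 6 members lay above 0 and 4 below. Under quantile normalization 8 lay above 0, and under median centring, spike-in scaling, the 75th percentile over all probes or no scaling all 10 did. Members passing the limma test as higher in HHR numbered 0 with spike-in scaling, 2 with no scaling, 5 with quantile normalization, 7 with median centring and 10 with the percentile over all probes. The shares of all tested miRNAs called higher were 6.87%, 16.3%, 24.5%, 25.3% and 57.5% under these scalings, in the same order. With total gene signal 4 members were higher against 14.6% of all, with array weights 1 (miR-18a) against 10.3%, and with normexp background 1 (miR-25) was lower against 70% of all. The median difference over all tested miRNAs itself moved from -0.11 to 0.23 across the 6 scalings. Relative to that median all 10 members lay above it under each scaling but quantile normalization, where 6 did.

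**Figure D2:**
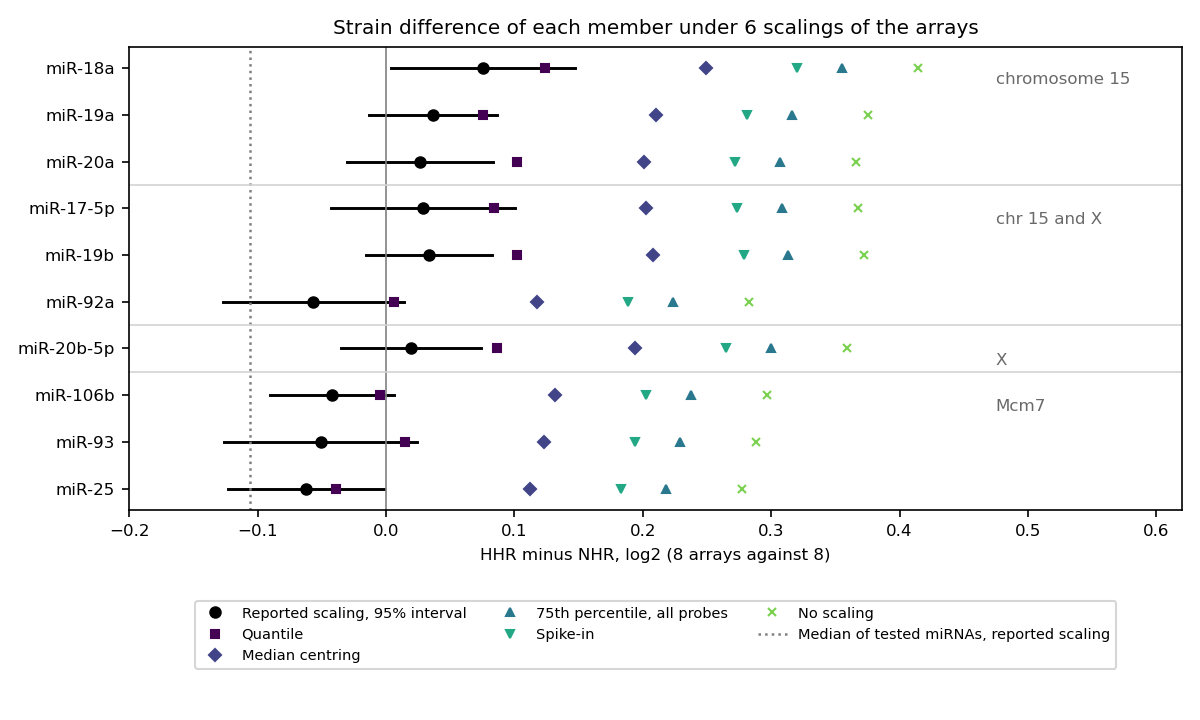
HHR minus NHR difference (log2, 8 arrays against 8) of each member, ordered by locus, at the reported scaling (black, with the 95% limma interval) and under 5 other scalings of the arrays. Each scaling other than quantile normalization shifts all members by the same amount: miR-25 goes from -0.062 at the reported scaling to 0.28 without scaling and miR-18a from 0.075 to 0.41, so directions against 0 flip for miR-25, miR-92a, miR-93 and miR-106b.

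Both probes of each member gave a difference of the same sign at the reported scaling. The probes of miR-18a read 0.096 ± 0.038 and 0.069 ± 0.034 (log2, SE), and the first of them passed the threshold when the 258 probes well above background were tested one by one (limma adjusted p = 0.0400), while the second did not (adjusted p = 0.0922). The probes of miR-25 read -0.081 ± 0.033 and -0.060 ± 0.027 (adjusted p = 0.0504 and 0.0707). The widest gap between the probes of a member was that of miR-93, with readings of -0.023 ± 0.026 and -0.055 ± 0.035. In these 3 members the gap was smaller than the larger standard error.

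**Figure D3:**
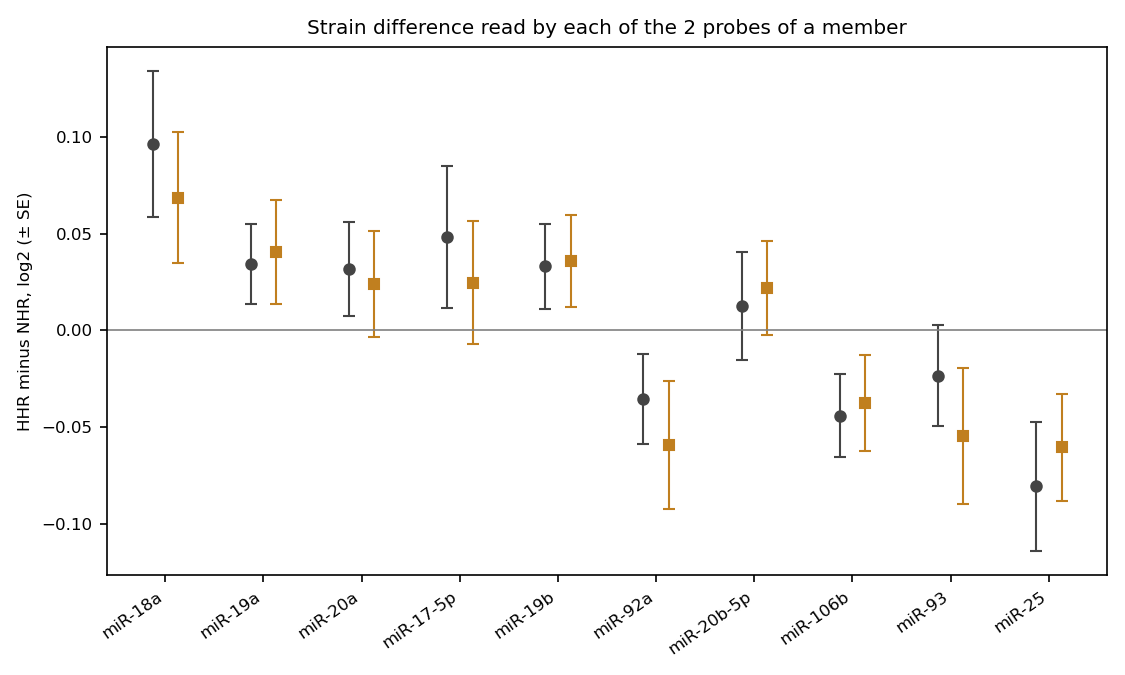
HHR minus NHR difference (log2, ± SE, 8 arrays against 8) read by each of the 2 probes of a member at the reported scaling. The 2 probes of every member fall on the same side of 0, from 0.096 for a miR-18a probe to -0.081 for a miR-25 probe; these sides hold at the reported scaling and move under others.

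A ratio of 2 miRNAs within an array cancels any scaling that multiplies the whole array by 1 factor (all of the 6 but quantile normalization), so member pairs were compared in this way. Only its change between strains is read, since the level of a ratio depends on the probes. The 6 pairs were compared by exact permutation of the strain labels (two-sided, 12870 splits), with p adjusted over the 6. Both miR-18a and miR-19a come from chromosome 15 and were set against miR-17-5p, which that locus shares with X. The log2 ratio of miR-18a to miR-17-5p ran from -0.60 to -0.54 in HHR (median -0.59) and from -0.67 to -0.57 in NHR (median -0.63). All 8 HHR arrays lay above the NHR median and 2 above every NHR array, with a difference of 0.047 ± 0.015 (exact permutation p = 0.0101, adjusted p = 0.0317). The ratio of miR-19a to miR-17-5p differed by 0.0077 ± 0.023 (exact permutation p = 0.753, adjusted p = 0.862), with 4 HHR arrays on each side of the NHR median.

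Members with the miR-17 seed from outside Mcm7 (miR-17-5p from chromosomes 15 and X, miR-20a from chromosome 15) were then compared with those from Mcm7. The log2 ratio of miR-17-5p to miR-106b ran from -1.36 to -1.19 in HHR (median -1.33) and from -1.44 to -1.30 in NHR (median -1.38), a difference of 0.071 ± 0.026 (exact permutation p = 0.0118, adjusted p = 0.0317). The log2 ratio of miR-20a to miR-93 ran from 1.80 to 1.90 in HHR (median 1.86) and from 1.71 to 1.91 in NHR (median 1.75), a difference of 0.078 ± 0.027 (exact permutation p = 0.0159, adjusted p = 0.0317). In both ratios all 8 HHR arrays lay above the NHR median, and the strains overlapped. The ratio of miR-92a to miR-25, which share a seed, differed by 0.0055 ± 0.030 (p = 0.862 in the exact permutation test before and after adjustment). This small difference averages over unlike NHR arrays. The mean log2 ratio was 0.84 on the 3 bright NHR arrays, 0.94 on the 5 dim ones and 0.91 in HHR. Its SD was 0.082 in NHR and 0.019 in HHR. With the bright arrays alone it differed by 0.067, which did not pass. The ratio of X-linked miR-20b-5p to miR-20a differed by -0.0070 ± 0.014 (exact permutation p = 0.607, adjusted p = 0.862).

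These 3 shifts of 6 were not more frequent than among other miRNAs: of the 17205 ratios that the 186 always detected miRNAs can form, 54.2% had an unadjusted exact permutation p under 0.05 and 14.4% did not overlap between strains. They were also small, 1.03-fold to 1.06-fold, and when arrays were left out in turn the calls held without 8, 7 and 6 of the 16, in the order given above. When strain was permuted only within replicate number and sex, none of the 3 calls passed (exact permutation, adjusted p = 0.0938 for miR-18a/miR-17-5p, 0.109 for miR-17-5p/miR-106b and 0.0938 for miR-20a/miR-93). The array brightness moved with strain here too. On the 3 bright NHR arrays the log2 ratio of miR-20a to miR-93 was 1.71, 1.72 and, in NHR male 4, 1.91. Its mean was 1.78 there, 1.76 on the 5 dim NHR arrays and 1.85 in HHR. For miR-17-5p to miR-106b these means were -1.36, -1.39 and -1.31, and for miR-18a to miR-17-5p -0.63, -0.62 and -0.58. With the bright arrays alone the differences of the first 2 were 0.065 and 0.048 and no longer passed (exact permutation adjusted p = 0.245 and 0.284); within slide 1 they were 0.085 and 0.087 and within slide 2 0.070 and 0.055, where 4 arrays against 4 allow no p under 0.0286.

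**Figure D4:**
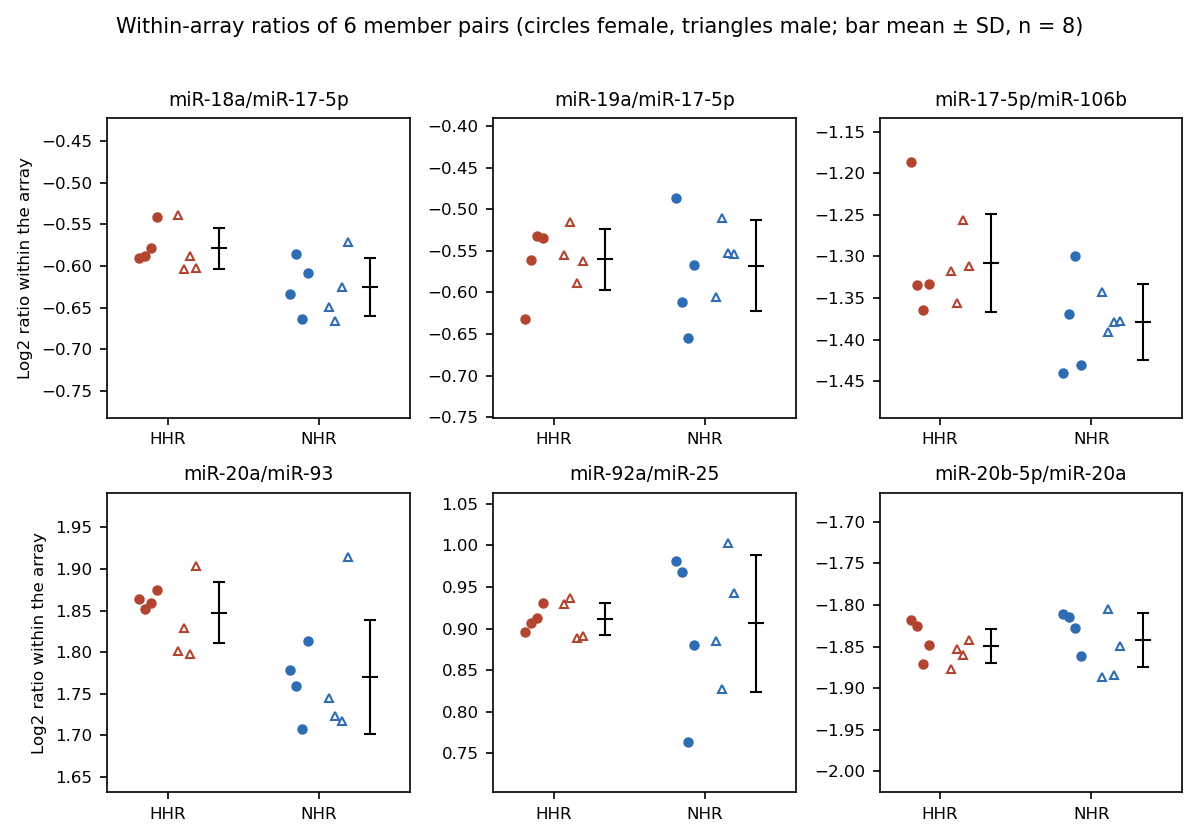
Log2 ratio of 2 members within each array (own axis per pair), by strain, with filled circles for females, open triangles for males and the mean ± SD over 8 arrays beside them. HHR arrays sit higher for miR-18a/miR-17-5p, miR-17-5p/miR-106b and miR-20a/miR-93, with 8 of 8 above the NHR median in each and with overlap, while the other 3 pairs differ by 0.0077 or less; none of the 3 calls passes when strain is permuted within replicate number and sex; with normexp background or the authors' value table the miR-18a/miR-17-5p difference is -0.0063 or -0.0089, and with that table miR-17-5p/miR-106b is -0.013.

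All 45 pairings of the 10 members are given as a description. The strain difference of each pair follows from the 2 member differences given above, so it is no further support for a division. Pairs within miR-17-5p, miR-18a, miR-19a, miR-19b, miR-20a and miR-20b-5p (15 pairs) differed between strains by 0.0020 to 0.056 in their log2 ratio. Pairs within miR-106b, miR-93 and miR-25 (3 pairs) differed by 0.0086 to 0.020. The 18 pairs that join one set to the other differed by 0.062 to 0.14. In these differences over all arrays miR-92a stood with the Mcm7 members (0.0055 to 0.015) and apart from the other 6 (0.076 to 0.13), although its hairpins lie on chromosomes 15 and X. From array to array it did not follow the Mcm7 members closely. The SD of its log2 ratio to them was 0.058 to 0.081, against 0.038 to 0.051 within Mcm7. On bright arrays alone its strain difference turned positive while theirs stayed negative. The strains did not overlap in 2 of the 45 pairings, miR-106b against miR-19a (-0.079) and against miR-19b (-0.076), a smaller share than the 14.4% among all ratios.

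No member differed between the sexes beyond the threshold. Between the 4 groups of 4 pups, the highest group mean of a member exceeded its lowest by a ratio of 1.03 (miR-19a) to 1.07 (miR-18a). In 28 of the 30 steps between neighbouring group means the step was smaller than the larger SD of the neighbours, the exceptions being HHR males against NHR males for miR-19a (108.7 ± 0.991 against 106.5 ± 1.78, SD, n = 4) and NHR females against HHR males for miR-25 (249 ± 6.15 against 239.5 ± 3.86). HHR females had the highest mean for 6 members, those above 0 in the strain comparison at the reported scaling. For miR-18a, both HHR groups (females 108 ± 4.78, males 107 ± 4.22) came before NHR females (103 ± 5.03) and then NHR males (101 ± 4.40). For miR-25 NHR males (249 ± 15.1) and NHR females were followed by HHR males and HHR females (237 ± 5.87).

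The limma test of males against females called 0 of 10 members and 0% of the tested miRNAs, and so did the interaction of strain and sex. The largest sex difference among the members was that of miR-20b-5p, -0.042 ± 0.025 (male minus female, log2; limma unadjusted p = 0.121, adjusted p = 0.882). In females alone 0 of 10 members and 45.1% of the tested miRNAs differed between strains, and in males alone 0 of 10 and 20.6%. No member had an unadjusted p under 0.05 in any of these 4 tests. miR-18a differed by 0.077 ± 0.047 in females and 0.074 ± 0.047 in males (limma adjusted p = 0.191 and 0.296). miR-25 differed by -0.069 ± 0.040 and -0.056 ± 0.040 (limma adjusted p = 0.173 and 0.342).

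The members varied little over the 16 arrays at the reported scaling. Their SD ran from 0.038 (miR-19b) to 0.070 (miR-18a) on the log2 scale with a median of 0.051. Over the 186 miRNAs detected on all arrays the median was 0.13. This SD also holds the strain difference, and a low spread was not particular to the members. Their SE of the strain difference, which rests on the spread within groups, was 0.0225 (miR-106b) to 0.0349 (miR-93). Other miRNAs had an SE as low, such as miR-143 (0.0200), let-7d (0.0215) and miR-103 (0.0223), or higher, such as miR-199a-3p (0.063). Likeness was measured as the root-mean-square distance over the 16 arrays between a miRNA's centred log2 profile and the mean centred profile of miR-17-5p, miR-18a, miR-19a and miR-20a. miR-19b (0.024) and miR-20b-5p (0.029) lay as near to that profile as the 4 miRNAs it was made from (0.019 to 0.030), while miR-106b (0.054), miR-93 (0.062), miR-25 (0.069) and miR-92a (0.088) lay farther out. Outside the cluster and its relatives, the 5 nearest were miR-185 (0.041), miR-101b (0.043), miR-130a (0.053), miR-542-3p (0.056) and miR-450a (0.057), where the median over all tested miRNAs was 0.16. A small distance in part reflects a steady level, since the profile itself had an SD of 0.048.

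The other products of the same loci were scarcely present. Of 19 related miRNAs on the array, 14 were detected on no array, among them 13 of the 15 further products of the 3 loci, including both passenger strands of the miR-17 hairpins and miR-363 from the X-linked copy. Of the 19, 4 could be tested, and 2 of these were lower in HHR, against the 45.5% of all tested miRNAs that were. The passenger strand of miR-106b, miR-106b*, was detected on all 16 arrays but lay at the floor of 1.92 on 4 of the 8 NHR arrays and between 2.09 and 2.86 in HHR, so its difference depends on the floor. It came to 0.078 ± 0.094 (limma adjusted p = 0.485), and that of miR-20a*, detected on 6 arrays and also near the floor, to -0.11 ± 0.14 (limma adjusted p = 0.520). miR-20a* turned positive under quantile normalization, the percentile over all probes, spike-in scaling and no scaling, while miR-106b* was positive under all 6 scalings and passed under the first 2 of these (0.47 and 0.37).

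miR-92b, which shares the seed of miR-92a and miR-25 but is encoded on another chromosome, was lower in HHR. It is printed to show its likeness to miR-92a, from which it differed at 2 of 21 shared positions outside the seed.
miR-92b: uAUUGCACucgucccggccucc
Its lowest, median and highest levels were 7.70, 9.67 and 10.8 in HHR and 9.49, 15.01 and 16.1 in NHR. The difference was -0.46 ± 0.13 (log2, SE; limma adjusted p = 0.00854), whereas miR-92a changed by -0.057. On the 3 bright NHR arrays miR-92b lay between 9.49 and 10.4, inside the HHR range, and on the 5 dim ones between 14.9 and 16.1. miR-92a was likewise lower on the bright NHR arrays (434.9 to 451.6) than on the dim ones (464.0 to 498.9). With the bright arrays alone the miR-92b difference was -0.048 (limma adjusted p = 0.692), and that of miR-92a turned positive. The miR-92b difference was negative under all 6 scalings and passed under 2 of them, the reported one and median centring (-0.29, adjusted p = 0.0451). miR-32*, the passenger strand of a further miRNA of the miR-92 seed, was detected on 1 HHR and 5 NHR arrays, with levels of 1.92 (the floor) to 9.72 in HHR and 6.64 to 25.8 in NHR. It met the filter of at least 4 arrays through NHR, the strain where it was higher, which favours a call as lower in HHR. The difference (-1.89 ± 0.38, limma adjusted p = 0.00127) passed as lower in HHR under all 6 scalings, which share this filter. Its size depended on the signal used: it was -0.40 with normexp (adjusted p = 0.00264) and -0.72 with a floor 4 times higher (adjusted p = 0.0341), and it did not pass with total gene signal (-1.51, adjusted p = 0.0671), with the authors' value table (-0.17, adjusted p = 0.0777) or within either slide (-1.88 and -1.90, adjusted p = 0.0651 and 0.0565).

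Marker miRNAs of the cell types a heart sample can hold shifted with strain too, and these shifts also depended on the scaling. Their counts are to be set beside the 45.5% of all tested miRNAs that were lower in HHR at the reported scaling and the 57.5% that were higher under the percentile over all probes. At the reported scaling 4 of the 6 tested cardiomyocyte markers (miR-133b, miR-208*, miR-208b-3p and miR-499) were lower in HHR, with a summed level of 11727 to 13202 in HHR and 12502 to 14163 in NHR; under the percentile over all probes 4 were higher and 0 lower. Both endothelial markers (miR-126 and miR-126*) were lower, with summed levels of 982 to 1096 in HHR and 1178 to 1295 in NHR, but passed in that direction only here and under quantile normalization. Of the 4 tested leukocyte markers 3 were lower (summed level 139 to 157 in HHR and 168 to 212 in NHR), and between 0 and 3 under the other scalings. Both smooth muscle markers were lower (summed level 1288 to 1361 against 1418 to 1504) but passed as higher under the percentile over all probes. Of the 3 fibroblast markers 1 was higher (summed level 1266 to 1688 against 1197 to 1475), and 1 to 3 were under the other scalings. Neither erythroid marker on the array (miR-144 and miR-451) passed, with summed levels of 203 to 313 and 213 to 338, and both passed as higher under the percentile over all probes. The liver, pancreas and neuron markers miR-122, miR-375, miR-124 and miR-9 and the cardiomyocyte marker miR-208 were detected on no array. The leukocyte marker miR-142-5p was not detected either, and the leukocyte marker miR-155 and the erythroid marker miR-486 were not on the array. The part of these shifts in the members' levels was not tested.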

How the data were processed

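The authors deposited the scanner output of 16 one-colour Agilent arrays (100 ng Cy3-labelled total RNA each, per the labels' protocols). Per the file headers, spot intensities were read on a linear scale by Agilent Feature Extraction 10.7.3.1 with background subtraction and no scaling between arrays. The deposited detection flags are 0 or 1 (other values). A second deposited table holds the authors' log2 values per miRNA, and the submitters' processing notes name limma. Its background correction, centring and scaling stay unknown, and it served as an alternative.

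Outlier and control spots were left out, and each array was scaled to an equal 75th percentile, taken over the 258 probes that every array read well above background. Linear probe values were averaged per miRNA, floored at 1.92 (0.94 on the log2 scale) and log2-transformed, and a miRNA entered the tests if at least 4 arrays detected it. Group means were fitted with limma 3.58.1 (R 4.3.3), 5 contrasts were taken, with Benjamini-Hochberg adjusted p and a threshold of 0.05. Ratios within arrays were compared by two-sided exact permutation tests. The fit was tested on simulated data. The number of arrays limits the precision.

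Members, lists and markers were chosen with earlier results of these data known. All 10 members were named, and beside them the related miRNAs that could be tested and the 5 nearest profiles. The rule assigned miR-17-5p to chromosome 15, but RefSeq lists a second hairpin on X. All 10 members matched RefSeq entries. Arrays lay on 2 slides with 2 arrays of each group on each. Replicate numbers were shared by the groups. Deviations from the group means correlated above 0.1 in 16 of 24 same-number pairs; pairing was to be assumed only if all 24 did, so the reported fit has no block, and blocked values are given where they end a call. Alternatives covered signal column, background (normexp, offset 50), scaling, floor, filter, moderation, array weights, slide and replicate blocks, brightness, the sex term and each array left out. Bright arrays alone (75th percentile above 400) and the background of ratio pairs were added after seeing the data.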

Additional observations from a re-analysis of the deposited data

Results flagged for a closer look

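In 4 of 64 sets of 4 arrays examined (10 members and 6 ratios in each of the 4 groups), 1 value lay apart from the other 3, where chance alone marks about 1 in 20 such sets. miR-25 measured 246.1 in HHR female 4, and the other HHR females lay between 233.7 and 235.6. miR-17-5p measured 174.0 in NHR female 3, against 151.8 to 154.7 in the other NHR females. miR-106b measured 419.9 in NHR male 1, against 399.2 to 402.6 in the other NHR males. The log2 ratio of miR-20a to miR-93 was 1.91 in NHR male 4, against 1.72 to 1.75 in the other NHR males.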

How the results depend on the processing

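The count of members called between strains was 0 as reported and 0 to 1 with any single array left out; the single call was miR-18a without HHR male 2 or NHR female 3 and miR-25 without NHR male 4. It was 5 with quantile normalization (4 in females alone, 2 in males alone), 10 with the percentile over all probes (10 and 8), 2 with no scaling, 7 with median centring (6 in females), 4 with total gene signal, 1 with normexp (miR-25, lower) and 1 with array weights (miR-18a). With quantile normalization 65 of the 233 tested miRNAs were called in females alone and 44 in males alone. The other counts for 1 sex stand here without such a share and are not read as a result about the members. The count over both sexes stayed 0 under the other 15 of 22 alternatives. Sex and interaction stayed at 0 members under each scaling, the replicate block and each array left out.

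Differences that turned sign follow, as log2 values whose cause was not tested. Quantile normalization gave miR-93 0.015, miR-92a 0.0063 and miR-20a* 0.30. The percentile over all probes gave miR-93 0.23, miR-106b 0.24, miR-92a 0.22, miR-25 0.22 and miR-20a* 0.19. No scaling gave 0.29, 0.30, 0.28, 0.28 and 0.13 for these 5. Median centring gave miR-93 0.12, miR-106b 0.13, miR-92a 0.12 and miR-25 0.11. Spike-in scaling gave them 0.19, 0.20, 0.19 and 0.18, and miR-20a* 0.067. Total gene signal gave miR-93 0.011, miR-106b 0.020, miR-92a 0.0052 and miR-20a* 0.028. The authors' value table gave miR-93 0.17, miR-106b 0.23, miR-92a 0.20, miR-25 0.16 and miR-20a* 0.020. With normexp, miR-17-5p was -0.023, miR-20b-5p -0.024, miR-18a -0.029, miR-19a -0.056 and miR-106b* -0.24. With brightness as a covariate, miR-17-5p was -0.0029, miR-20b-5p -0.017, miR-92a 0.014 and miR-106b* -0.032. On bright arrays alone, a choice made after seeing the data, miR-17-5p was -0.026, miR-20a -0.00031, miR-20b-5p -0.022, miR-92a 0.025 and miR-106b* -0.060. Within slide 1, miR-106b* was -0.025.

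For the ratios, normexp gave miR-18a/miR-17-5p -0.0063, miR-19a/miR-17-5p -0.033, miR-17-5p/miR-106b 0.015 and miR-20b-5p/miR-20a -0.066 (passed). Quantile normalization gave miR-18a/miR-17-5p 0.040, miR-19a/miR-17-5p -0.0082, miR-17-5p/miR-106b 0.089 and miR-20a/miR-93 0.087, none passing. The mean of log2 probe values ended the calls of miR-18a/miR-17-5p (0.046) and miR-20a/miR-93 (0.067). The authors' value table gave miR-18a/miR-17-5p -0.0089, miR-19a/miR-17-5p -0.0067, miR-17-5p/miR-106b -0.013, miR-92a/miR-25 0.041 (passed) and miR-20b-5p/miR-20a -0.090 (passed). No ratio passed within a slide, where 4 arrays against 4 allow no exact permutation p under 0.0286. A single ratio at that limit cannot pass after adjustment over the 6 pairs, so these tests decide nothing. On slide 1 miR-20a/miR-93 lay at the limit (exact permutation p = 0.0286). Slide 1 gave 0.053, -0.013, 0.087 and 0.085 for the first 4 pairs in the report's order. Slide 2 gave miR-18a/miR-17-5p 0.040, miR-17-5p/miR-106b 0.055, miR-20a/miR-93 0.070 and miR-20b-5p/miR-20a 0.00022. Bright arrays alone gave 0.055, 0.048 and 0.065 for the 3 called ratios and 0.067 for miR-92a/miR-25, none passing. With arrays left out in turn, miR-18a/miR-17-5p ran from 0.041 to 0.054, miR-17-5p/miR-106b from 0.054 to 0.082, miR-20a/miR-93 from 0.069 to 0.098, miR-19a/miR-17-5p from -0.0048 (without NHR female 3) to 0.019, and miR-92a/miR-25 from -0.015 (without NHR female 3; -0.0058 without NHR male 2) to 0.019. All 3 calls were lost without HHR female 1 or 4, HHR male 4, NHR female 1 or NHR male 1, 2 or 3, that of miR-18a/miR-17-5p also without NHR female 3, that of miR-17-5p/miR-106b without NHR female 2 or 4, and that of miR-20a/miR-93 without HHR female 3 or NHR female 2 or 3 (adjusted p up to 0.0606, 0.0606 and 0.0622).

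With the replicate block, 0 members were called, as without it. Permuting strain within replicate number and sex left the 3 called ratios at 0.047, 0.071 and 0.078 but no longer passing (exact permutation, adjusted p = 0.0938, 0.109 and 0.0938). Of 16 arrays, 4 correlated best with an array of their own number. Each replicate number lay on 1 slide.

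Precision is limited by 8 arrays per strain, and the members' signals were all well above background. The reported differences were under 0.08 on the log2 scale, less than the shift of the median miRNA between scalings, so neither a higher nor a lower level in HHR can be read from them apart from the scaling.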
